A study of Mus musculus with 4 samples.

Results

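The regions described are Dzip3 peaks that no other library shared and that lay away from promoters. A peak of the Dzip3 list was taken when the listed percentages of its length covered by Ring1B, ubH2A and input DNA peaks were all 0, and when it was more than 4 kb from the transcription start site (TSS) of every protein-coding transcript. The rule gave 2006 of the 6482 Dzip3 peaks (30.9%). It left out 376 further Dzip3-only peaks within 4 kb of a TSS and 3617 peaks over 4 kb away that a peak of at least 1 other library overlapped. The members were thus chosen by the absence of a called peak in the other 3 libraries and by distance, and neither is a finding here.

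The data come from E14 mES cells (strain 129/Ola, passage 3 to 5), a line of mouse embryonic stem cells, grown without feeders in 2i + LIF, which is N2B27 medium holding 1 μM PD0325901 (an inhibitor of MEK), 3 μM CHIR99021 (which blocks GSK3) and 1000 U/ml of LIF. All 4 libraries share these cells and this medium, and 1 library was made for each of the 3 antibodies, against Dzip3, Ring1B and ubH2A, and 1 for input DNA. There are therefore no replicates and no tests, and the intervals given are 95% Wilson intervals (for medians, binomial intervals of rank) that cover counting error over peaks only. Cells were fixed in 1% formaldehyde, the rabbit antibodies were made by the authors, and fragmentation is given as micrococcal nuclease in the paper and as a Picoruptor in the sample labels.

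Dzip3, also called 2A-HUB, is a RING-type E3 ubiquitin ligase that binds RNA and can attach ubiquitin to lysine 119 of histone H2A. The same mark, ubH2A, is placed by Ring1B, the catalytic subunit of polycomb repressive complex PRC1, and is associated with repression of developmental genes in mES cells. Away from promoters, distal binding sites of polycomb proteins are known to contact promoters through looping of the chromatin.

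Many members were centred on simple or tandemly repeated DNA, and a few of these sequences are shown first because the shares of such sequence differ widely between the members and the genome. Each is the 200 bases at the centre of a peak in mm9, plus strand. The first 6 are tandem arrays, in which a unit is repeated head to tail, and the capitals mark 1 unit. The first 3 belong to members high in RPM (the height of a peak scaled to library size), and in the other 3 every base matched the base 1 unit on. The array 18890 bp from the TSS of Mc3r has a unit of 17 bases, the one in an intron of Trappc9 a unit of 32 bases, and the one in an intron of Dytn a unit of 69 bases. The exact arrays lie 17574 bp from Nfatc2 (33 bases), in an intron of Gm281 (54 bases) and 50679 bp from Tlr1 (37 bases).
chr2:172092992-172093191: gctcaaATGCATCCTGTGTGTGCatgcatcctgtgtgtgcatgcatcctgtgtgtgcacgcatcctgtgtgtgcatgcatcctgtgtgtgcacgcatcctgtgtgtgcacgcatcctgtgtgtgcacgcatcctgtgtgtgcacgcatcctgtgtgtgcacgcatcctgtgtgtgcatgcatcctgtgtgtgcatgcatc
chr15:72827359-72827558: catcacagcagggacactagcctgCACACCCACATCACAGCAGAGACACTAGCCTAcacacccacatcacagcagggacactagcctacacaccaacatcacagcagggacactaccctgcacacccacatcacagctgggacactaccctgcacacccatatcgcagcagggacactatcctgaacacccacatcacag
chr1:63677129-63677328: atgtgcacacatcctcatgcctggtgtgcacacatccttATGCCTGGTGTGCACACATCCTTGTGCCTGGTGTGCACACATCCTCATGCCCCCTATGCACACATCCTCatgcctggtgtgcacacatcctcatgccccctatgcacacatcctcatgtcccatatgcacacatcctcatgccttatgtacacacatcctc
chr2:168444806-168445005: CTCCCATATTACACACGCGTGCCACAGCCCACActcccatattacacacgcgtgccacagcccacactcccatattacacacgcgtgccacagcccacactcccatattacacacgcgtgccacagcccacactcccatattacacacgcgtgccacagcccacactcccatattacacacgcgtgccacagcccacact
chr14:14679166-14679365: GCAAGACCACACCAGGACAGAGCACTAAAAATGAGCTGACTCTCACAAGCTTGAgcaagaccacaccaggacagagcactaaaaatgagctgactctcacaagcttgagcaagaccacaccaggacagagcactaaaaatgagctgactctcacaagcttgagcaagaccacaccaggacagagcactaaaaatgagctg
chr5:65273089-65273288: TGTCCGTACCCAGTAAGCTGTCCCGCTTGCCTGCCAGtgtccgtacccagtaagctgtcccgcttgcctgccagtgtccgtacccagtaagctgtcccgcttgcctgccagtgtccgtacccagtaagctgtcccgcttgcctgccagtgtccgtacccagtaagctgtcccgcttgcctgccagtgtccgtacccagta

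The next 2 windows are shown for runs in which purines and pyrimidines alternate, and the capitals mark the longest such run. The run fills all 200 bases at the member in an intron of Tulp4 and is 158 bases long at the member 20834 bp from Bdnf.
chr17:6209237-6209436: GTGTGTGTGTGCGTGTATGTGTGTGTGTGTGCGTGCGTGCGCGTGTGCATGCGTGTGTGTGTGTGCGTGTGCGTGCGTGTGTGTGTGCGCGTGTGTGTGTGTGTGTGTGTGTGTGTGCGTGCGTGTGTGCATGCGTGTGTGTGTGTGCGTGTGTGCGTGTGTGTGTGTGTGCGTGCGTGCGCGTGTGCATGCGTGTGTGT
chr2:109493808-109494007: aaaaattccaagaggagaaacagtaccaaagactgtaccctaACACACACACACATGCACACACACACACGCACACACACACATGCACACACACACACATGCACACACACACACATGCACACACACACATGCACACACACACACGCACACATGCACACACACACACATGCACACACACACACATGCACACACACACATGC

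The last 3 windows hold neither a long run nor an array, with the longest alternating run again in capitals. The first 2 belong to the strongest members, 59559 bp from A2m and 329907 bp from Svip, and their median 31-base word has over 1000 copies in the genome. The third belongs to a member that overlaps a coding exon of Dner, with words found only once.
chr6:121645830-121646029: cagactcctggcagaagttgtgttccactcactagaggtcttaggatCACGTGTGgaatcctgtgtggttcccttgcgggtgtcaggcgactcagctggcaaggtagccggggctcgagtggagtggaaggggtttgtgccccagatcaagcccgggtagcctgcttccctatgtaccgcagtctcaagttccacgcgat
chr7:59591328-59591527: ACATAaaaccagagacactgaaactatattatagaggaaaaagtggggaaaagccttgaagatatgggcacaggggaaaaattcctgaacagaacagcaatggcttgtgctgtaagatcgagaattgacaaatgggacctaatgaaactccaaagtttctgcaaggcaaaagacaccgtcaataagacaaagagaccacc
chr1:84442008-84442207: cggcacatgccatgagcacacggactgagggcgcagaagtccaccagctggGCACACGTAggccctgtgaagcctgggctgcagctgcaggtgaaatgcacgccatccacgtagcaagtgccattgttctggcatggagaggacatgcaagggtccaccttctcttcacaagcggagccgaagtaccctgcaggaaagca

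Most members stood only a little above the lowest height in the Dzip3 list. The list starts at a height of 33 extended reads, or 0.619 RPM, and 996 of the 2006 members (49.7%, 47.5% to 51.8%) had a height of 33 to 36. The median height was 0.695 RPM (quartiles 0.638 and 0.770), against 0.939 RPM (0.732 and 1.43) for the other Dzip3 peaks over 4 kb from a TSS. Only 24 members reached 66 extended reads. They were also short, with a median length of 216 bp against 304 bp, and 779 had the smallest length in the list, 200 bp.

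A member held a median of 70 reads of Dzip3, 28 of Ring1B, 28 of ubH2A and 4 of input DNA. The listed reads are not scaled to library size, which the RPM values put between 48.3 M reads (input DNA) and 67 M reads (ubH2A). Summed over all members, Dzip3 had 299 reads per kb, which is 14.4 times its mean over the genome. Ring1B had 121 reads per kb (5.97 times its mean), ubH2A 124 (4.73 times) and input DNA 24 (1.27 times). The members thus held Ring1B and ubH2A reads above the genome mean although neither library had a peak there. The reads in each member were also scaled to library size, which is not the RPM of the peak height. By these scaled reads, Ring1B exceeded input DNA in 1900 members (94.7%) and ubH2A did so in 1879 (93.7%). No Ring1B read was found in 12 members and no ubH2A read in 14. Dzip3 had the most scaled reads of the 4 libraries in 1989 members (99.2%). The median ratio of scaled reads of Dzip3 to Ring1B was 2.47 (quartiles 1.74 and 3.89) over the 1994 members with a Ring1B read. That of Dzip3 to ubH2A was 3.17 (2.22 and 4.94) over the 1992 with a ubH2A read. These ratios describe what the rule selected, since positions with a called Ring1B or ubH2A peak were left out. Even so, Ring1B exceeded Dzip3 in scaled reads in 14 members and ubH2A did in 3, and single members held up to 103 Ring1B reads. No IgG library was among those analysed here, so reads that any antibody would pull down cannot be told apart from Ring1B or ubH2A at the members.

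**Figure D1:**
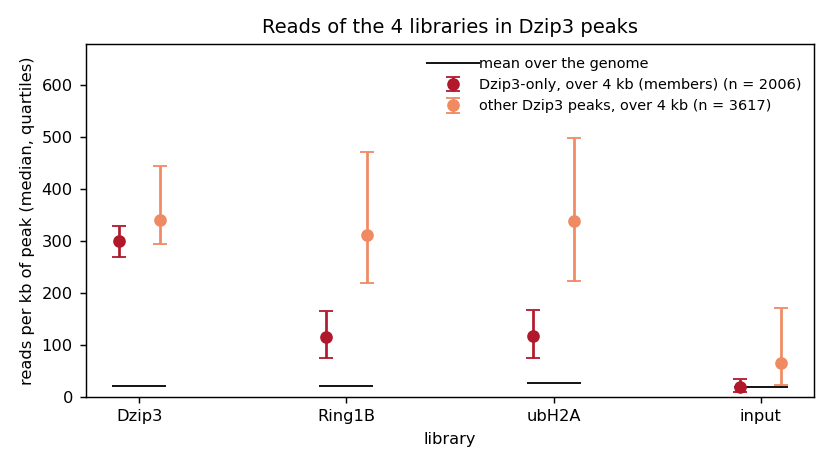
Reads per kb of peak in the 4 libraries (vertical axis, not scaled to library size; points are medians and bars quartiles over peaks) in the 2006 members and the 3617 other Dzip3 peaks over 4 kb from a TSS, with the mean over the genome as a black line. In the members, Ring1B and ubH2A lie between Dzip3 and input DNA, with medians of 115 and 118 reads per kb against 301 and 19.6.

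The median scaled fold of Dzip3 over input DNA was 12 (quartiles 7.23 and 20.7) in the members. A fold of at least 5 was listed for 1771 members (88.3%), and for 63.6% of all Dzip3 peaks. The absence of an input peak was part of the rule, so nothing is read from this difference. For all 207 members with 0 input reads the listed fold is the number of Dzip3 reads plus 1 and is not scaled. The median over the members with input reads was 11.0.

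The strongest members were mainly built of sequence with many copies in the genome. Among the 8 with the highest RPM, 6 lay between protein-coding genes, as did 55.5% of all members and 55.3% of the 50% highest in RPM. A median word count of over 1000 copies was found for 6 of the 8, against 248 of all 2006 members (12.4%). The highest, chr6:121645750-121646109, reached 2.95 RPM with 307 reads of Dzip3, 19 of Ring1B, 23 of ubH2A and 2 of input DNA, 59559 bp from A2m, which encodes the protease inhibitor alpha-2-macroglobulin. The second, chr7:59591295-59591560, had 279, 57, 7 and 5 reads in the same order of libraries. In both, Dzip3 stood far above every other library. The array near Mc3r, a melanocortin receptor gene, had 235 reads of Dzip3, 37 of Ring1B, 51 of ubH2A and 6 of input DNA. The long array in Dytn, at chr1:63676822-63677634 the longest member with 812 bp, had 283 Dzip3 reads but also 103 Ring1B, 96 ubH2A and 8 input reads. The member in an intron of Shc3, an adaptor of receptor tyrosine kinases expressed in neurons, had 91 Dzip3 reads and 0 input reads. The remaining 3, near Hdhd1a on chromosome 18, Zfp40 on chromosome 17 and Gm17521 on chromosome X, held 91, 108 and 81 Dzip3 reads against 8, 2 and 4 input reads. How the alignment placed reads among the copies of such sequence bears on these values and was not tested.

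Simple and tandem sequence was common at the centres of the members. A window was called a tandem array when at least 70% of its bases equalled the base 1 period on, for the best period of 1 to 80 bases. By this measure 390 members (19.4%, 17.8% to 21.2%) were arrays, against 0.708% (0.636% to 0.789%) of windows of the same length taken every 50 kb over 4 kb from a TSS, and 1.02% of such windows with 47% to 56.5% GC, the middle range of the members. Long units prevailed. The best period was 41 to 80 bases in 141 of the 390 arrays, 21 to 40 bases in 115 and at most 4 bases in 28, and it can be a multiple of the unit. Alternating runs of at least 20 bases were present in 328 members (16.4%, 14.8% to 18%), against 3.84% of all 11450633 windows of 200 bases over 4 kb from a TSS and 2.97% of those with 47% to 56.5% GC. In 640 members (31.9%) there was a run or an array, and in 78 there were both. Both measures were chosen after the sequences of these peaks had been seen.

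**Figure D2:**
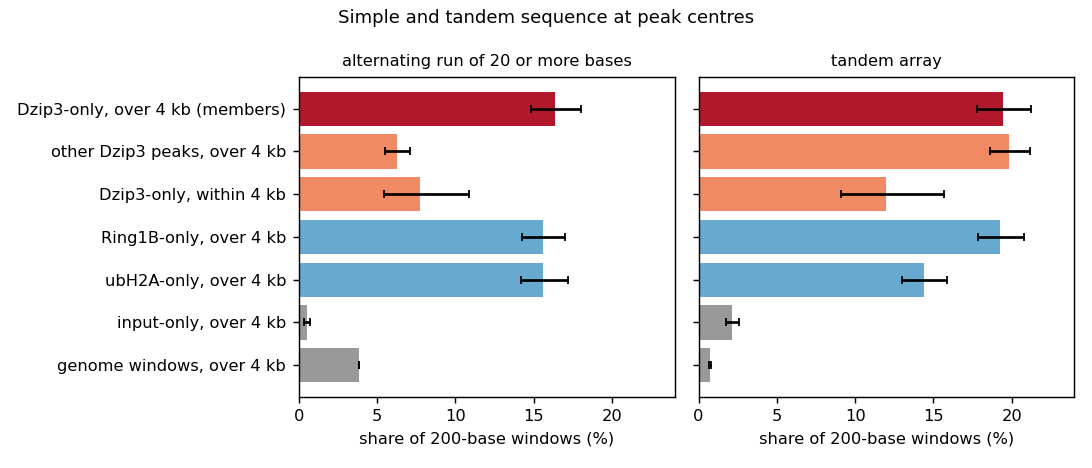
Share of 200-base windows at peak centres (horizontal axes, in percent, bars are 95% Wilson intervals) that hold an alternating purine-pyrimidine run of at least 20 bases (left) or a tandem array (right). The genome bar stands for all windows on the left and for 1 window in every 50 kb on the right. The members, with 16.4% and 19.4%, lie near the Ring1B-only peaks and far above the input-only peaks, with 0.496% and 2.11%.

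Neither feature was particular to Dzip3. Alternating runs were found in 15.6% (14.3% to 17%) of Ring1B-only peaks and 15.6% (14.2% to 17.2%) of ubH2A-only peaks over 4 kb from a TSS, shares whose intervals overlap that of the members. Tandem arrays made up 19.3% of these Ring1B-only peaks, 14.4% of the ubH2A-only peaks and 19.9% of the Dzip3 peaks that other libraries shared. Within the Dzip3 list, alternating runs were more frequent in the members than in the shared peaks, with 6.25% (5.50% to 7.08%), and the Dzip3-only peaks within 4 kb of a TSS, with 7.71% (5.42% to 10.9%). For arrays the shared peaks lay within the interval of the members, and the peaks within 4 kb had 12% (9.07% to 15.6%). Peaks that input DNA alone gave rarely had either, with 23 runs and 98 arrays among 4637. The lists start at unlike heights, however, with 15 extended reads for input DNA, 33 for Dzip3, 31 for Ring1B and 32 for ubH2A. In each set the library that called the peaks had the most reads, which the choice of peaks without overlap fixed. In the 328 members with a run the medians were 72 Dzip3, 24 Ring1B and 26 ubH2A reads, whereas in the 423 Ring1B-only peaks with a run they were 25, 69 and 29, and in the 356 ubH2A-only peaks 21, 26.5 and 74.

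Median Dzip3 reads differed little between members with and without these sequences, and median Ring1B reads differed more. Many heights lie near the lowest one listed, so little is read from the close Dzip3 medians. Members with an array had medians of 74 Dzip3, 33 Ring1B, 31 ubH2A and 4 input reads, and those without 69, 27, 28 and 4, but the arrays were also longer peaks (238.5 bp against 212 bp). Arrays were 30 of the 100 members highest in RPM, 5 of the highest 24 (20.8%) and 2 of the highest 8, against 19.4% of all members. Words of 31 bases that occur more than once in the genome, copies within the same array included, made up over 50% of the window in 787 members (39.2%, 37.1% to 41.4%), 78.8% of the shared Dzip3 peaks and 16.1% of windows taken every 50 kb. No repeated word was found in 687 members (34.2%), against 3.82% of the shared peaks and 61.5% of the windows. Members with no repeated word had a median of 68 Dzip3 reads and those above 50% had 71, while the Ring1B medians were 23 and 34. Of the strongest members with no repeated word, that in an intron of Kcnip1, which encodes a protein that binds potassium channels, had 126 Dzip3 and 2 input reads, and that in an intron of Arhgef7 had 127 and 6.

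The members were richer in G and C than windows of the genome over 4 kb from a TSS. Median GC content of the central 200 bases was 52.2% (52.0% to 52.5%), against 49.0% in the shared Dzip3 peaks over 4 kb, 57.5% in the Dzip3-only peaks near promoters and 41% in all windows over 4 kb from a TSS. The median ratio of observed to expected CpG dinucleotides was 0.156 (0.146 to 0.164), slightly above the 0.142 of those windows. Ring1B-only and ubH2A-only peaks over 4 kb had a median GC content of 56.5% and 51%, and input-only peaks 38.5%. A GC content above that of the windows was thus not particular to the Dzip3 peaks. The members were divided by GC content into 4 groups of similar size. From the lowest to the highest group the median fold went from 9.84 to 16.3 and input reads from 6 to 3, with 68 to 72 Dzip3 reads throughout. Alternating runs lay in 33.9% of the lowest group and 1.43% of the highest, whereas arrays made up 17% and 25.5%.

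Most motifs of known factors were found in few members. Each was searched on both strands of the central 200 bases. Beside the share of members stand that of all windows over 4 kb from a TSS and that of such windows with 47% to 56.5% GC, in this order. GATA sites (GATAAG) were in 3.09% of members, 7.39% of all windows and 5.20% of those with similar GC. AP-1 sites (TGANTCA) were in 3.14%, 5.98% and 5.46%, telomere-type repeats (TTAGGG) in 3.79%, 7.56% and 7.81% and runs of T (TTTTTTTTT) in 0.299%, 5.87% and 1.48%. These were less frequent in the members than in either set of windows. The same held for the Ring1B-only and ubH2A-only peaks over 4 kb, so it was not particular to the Dzip3 peaks. There, GATA sites were in 1.95% and 4.12% and AP-1 sites in 2.43% and 3.51%. Telomere-type repeats were in 4.31% and 4.34% of these peaks and runs of T in 0.0368% and 0.307%. For octamers, the CTCF core and GC boxes, but not for the motifs given after them, the order turned with GC content. Octamers (ATGCAAAT) were in 1.30%, 1.81% and 0.682%, the CTCF core (CCANNAGNG) in 10.9%, 9.56% and 14.1%, and GC boxes (GGGCGG) in 2.89%, 1.58% and 3.47%. SOX sites (ACAATGG) were in 4.19%, 3.61% and 3.12%, ESRRB sites (TCAAGGTCA) in 0.249%, 0.407% and 0.506%, the REST half-site (TTCAGCACC) in 0.349%, 0.183% and 0.314%, and GA repeats (GAGAGAGA) in 3.34%, 3.52% and 4.90%. E-boxes (CANNTG) were in 71.1%, 65.7% and 70.6%.

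CA repeats (CACACACA) were in 25.7% of members, 6.05% of all windows and 6.16% of those with similar GC. They overlap alternating runs, as 9.92% of members and 3.02% of all windows had the repeat but no run. Ring1B-only and ubH2A-only distal peaks held them in 23.2% and 24.2%, so they were not particular to the Dzip3 peaks. The E-box CACGTG, itself an alternating word, was in 5.68% of members, 1.87% of all windows and 2.87% of those with similar GC, and in 7.59% and 7.06% of the Ring1B-only and ubH2A-only peaks. Without a run it was in 3.39% (2.68% to 4.28%) of members and in 2.83% (2.53% to 3.16%) of windows with similar GC taken every 50 kb, with overlapping intervals. A match says only that the letters are there.

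The members were more often in genes than other distal Dzip3 peaks. By any overlap with a protein-coding gene of the GENCODE annotation for mm9, 141 members were exonic (7.03%, 5.99% to 8.23%), 752 intronic (37.5%, 35.4% to 39.6%) and 1113 intergenic (55.5%, 53.3% to 57.6%). The shares among the 3617 shared Dzip3 peaks over 4 kb were 2.63% (2.15% to 3.2%), 26.7% and 70.7%, and among all windows of 200 bases 2.82%, 32.4% and 64.8%. Windows with 47% to 56.5% GC were exonic in 4.28%, intronic in 36.5% and intergenic in 59.2%, and this intronic share lies within the interval of the members. The intervals of members and shared peaks do not overlap in any class, but they treat peaks as independent. Of the 6482 Dzip3 peaks, 947 lay in only 10 windows of 1 Mb, which held 27 members. How far such clusters set the shares of the shared peaks was not tested. Of the intergenic members, 53 lay in a gene of another type. With genes of all types, 7.88% (6.78% to 9.14%) of members and 5.89% (5.17% to 6.70%) of shared peaks were exonic, so the difference was smaller. The exonic share moved with GC content. It was 17.6% in the group highest in GC and 0.578% in the lowest, and 15% of genome windows with the GC content of the highest group were exonic. With the class taken at the centre of the peak, 5.08% of members were exonic.

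**Figure D3:**
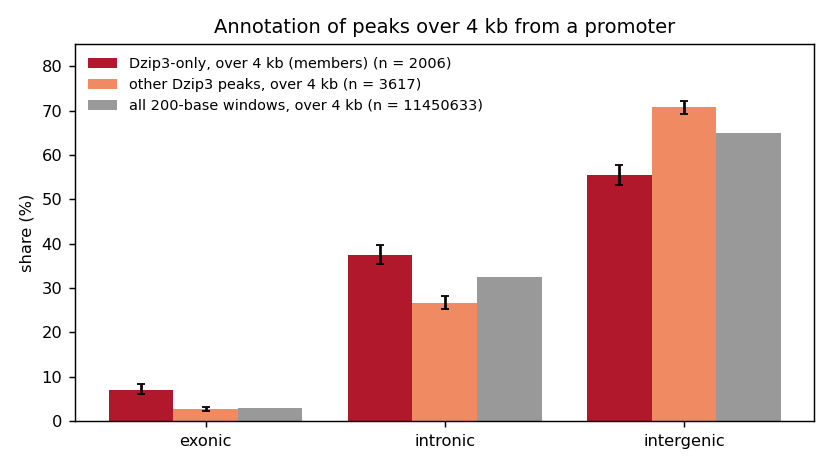
Share of members, of the other Dzip3 peaks over 4 kb and of all 200-base windows over 4 kb from a TSS (vertical axis, in percent, with 95% Wilson intervals for peaks) that overlap an exon, an intron or neither of a protein-coding gene. The members show the highest exonic and intronic shares, with 7.03% and 37.5%.

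Nearly all exonic members overlapped coding sequence. An overlap of any length counted, and the centre of the peak lay in an exon in 102 members. Of the 141, 121 overlapped coding sequence, 19 an untranslated exon part only and 1 neither. They had a median GC content of 58.0%, arrays in only 2 and alternating runs in 6, and their windows had a median of 0% repeated words against 44.7% in intergenic members. Their reads were those of the rest, with medians of 71 Dzip3, 26 Ring1B, 29 ubH2A and 4 input reads, against 71, 27, 29 and 4 in introns and 69, 29, 28 and 5 between genes. The strongest exonic member, overlapping an untranslated exon part of C130026I21Rik on chromosome 1, held 125 Dzip3, 74 Ring1B, 55 ubH2A and 21 input reads. A member that overlaps a coding exon of Gpatch1, and whose central window holds an alternating run of 39 bases, had 109, 12, 51 and 4. The Dner member shown above, in a gene for a Notch-binding receptor of neurons, had 100, 36, 47 and 4. Other members overlapped exons of Dnahc8, a dynein heavy chain of the sperm flagellum, and of Neurl1b, an E3 ubiquitin ligase of the Notch pathway. These held 113 and 111 Dzip3 reads, with 23 and 3 input reads, and the Dnahc8 window holds an alternating run of 33 bases. Among the strongest intronic members, those in Chrm2, a muscarinic acetylcholine receptor gene, in A930011G23Rik and in Trappc9 had 133, 203 and 147 Dzip3 reads and 12, 10 and 11 input reads.

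The distance to the nearest protein-coding TSS had a median of 37.3 kb (quartiles 14.6 and 105.7 kb), against 45.4 kb for the shared distal Dzip3 peaks and 64.2 kb for the windows. Between 4 and 10 kb lay 306 members (15.3%), between 10 and 50 kb 857 (42.7%), and beyond 500 kb 62 (3.09%), where 10.1% of the windows lie. The members just outside 4 kb were at 4003 bp in an intron of Hipk2, at 4014 bp in coding sequence of Nanog and at 4024 bp in an intron of Cacna1s, with 63, 51 and 71 Dzip3 reads. The Dzip3-only peaks just inside, at 3948 bp from Scx, 3945 bp from Serpinb7 and 3940 bp from Lrfn4, held 67, 69 and 76. The values on both sides of the limit were of the same size.

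Members lay nearer to Ring1B peaks than windows of the genome did, although none was covered by one. A Ring1B peak was within 1 kb of 94 members (4.69%, 3.84% to 5.70%), within 10 kb of 309 (15.4%) and within 100 kb of 1110 (55.3%). For windows taken every 50 kb the shares were 0.610%, 4.59% and 33.6%. Another Dzip3 peak lay within 10 kb of 268 members (13.4%), and a Dzip3 peak within 10 kb of 3.65% of the windows. In the closest groups of 3 members the share of repeated words ranged from 10.6% to 100%. The group on chromosome 10, 19166 to 20644 bp from Gm8701, held 76, 112 and 62 Dzip3 reads over chr10:99767177-99768896, with 3, 4 and 2 input reads. The group on chromosome 15, 37494 to 40572 bp from C9, held 59, 95 and 76 Dzip3 reads and 0, 0 and 3 input reads over chr15:6477412-6480746. The group at chr12:20282476-20285443 had 60, 114 and 90 Dzip3 reads and 15, 25 and 26 input reads, the most input reads of the 3 groups.

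The members were spread over the genome. They fell into 1161 windows of 1 Mb, 702 of which held a single member, and the highest number was 12, on chromosome 12 from 20 to 21 Mb and on chromosome 8 from 123 to 124 Mb. The 10 windows densest in all Dzip3 peaks, with 947 of these, held only 27 members (1.35%). On autosomes the density lay between 0.707 members per Mb on chromosome 13 and 1.37 on chromosome 15, counted over sequence more than 4 kb from a TSS. Chromosome X had 45 members, or 0.297 per Mb, against 0.915 for the autosomes together, while the shared distal Dzip3 peaks were at 2.58 per Mb on X. Over 50% of words were repeated in 42 of the 45 members on X (93.3%), against 38.0% on autosomes. None of the 45 had an alternating run, which allows a share of up to 6.67%, against 16.7% of autosomal members, and in 2.79% of windows on X and 3.91% on autosomes there was one. The windows of X had a mean GC content of 39.0%, the lowest of these 20 chromosomes. The median height of members was 0.713 RPM on X and 0.695 RPM on autosomes, both near the lowest height listed. Why X held fewer members per Mb was not tested.

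**Figure D4:**
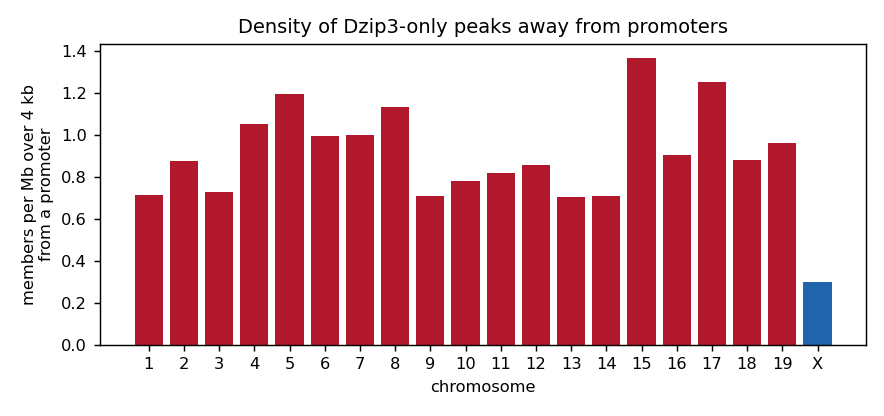
Members per Mb of sequence over 4 kb from a protein-coding TSS (vertical axis) on chromosomes 1 to 19 (red) and X (blue), without error bars because there is 1 library. X stands at 0.297, below all autosomes, which range from 0.707 to 1.37.

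A member lay in the span of 744 of the 22380 protein-coding genes (3.32%). These host genes were long, with a median span of 104 kb against 15.4 kb for all protein-coding genes, and 106 of them held 2 or more members. Among genes over 500 kb, 30.5% had a member, and among those of up to 10 kb 0.146%, where the limit of 4 kb leaves little room. Per Mb of span the order was different, with 0.703 members in the longest class, 0.974 in genes of 100 to 500 kb and 1.01 in genes of 10 to 50 kb, against 0.901 over all. Within 100 kb of a TSS a member was found for 3720 genes (16.6%).

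The gene with the most members, Gm20388 on chromosome 8, is a model of 4435 kb that runs over many other genes and held 27. Dnahc8 came next with 6 members in 250.9 kb and 498 Dzip3 reads. C130026I21Rik and the pseudokinase gene Ulk4 had 5 each, with 423 and 407 Dzip3 reads. There were 4 each in Trappc9, whose product tethers vesicles, Atrnl1, Sdk1, a synaptic adhesion gene, Gm13242, Gabbr2, a subunit of the GABA-B receptor, and Camta1, a calmodulin-binding transcription activator, with 303 to 418 reads. Fbxo25 had 3 members within 32.7 kb, and Gm10406, Gm3264, the calcium channel gene Cacna1c and the collagen gene Col23a1 also had 3. C130026I21Rik, Gm13242, Gm10406 and Gm3264 belong to families of similar genes, whose reads can be assigned to the wrong copy.

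The lists of neuronal adhesion, fragile-site and axon guidance genes had a high share of hosts but few members for their length. Of 35 genes for neuronal adhesion and synapse organizers, 8 (22.9%) held a member, against 3.32% of all protein-coding genes, yet they had 0.360 members per Mb of span against 0.901. Their median span is 740 kb, and all protein-coding genes over 500 kb had 0.703 members per Mb. The density of the list rests on 10 members and has no interval. The highest in reads were Cntnap2, a neurexin-like protein of axons, with 2 members and 197 Dzip3 reads, Magi2, a synaptic scaffold, with 2 and 117, and Nlgn1, a postsynaptic ligand of neurexins, with 1 and 111. Ptprt and Dscaml1 had 64 and 50 reads. Large fragile-site genes showed the same, with 8 of 23 (34.8%) and 0.421 per Mb, led by Csmd1 (165 reads), Gpc6 (128), Magi2, Lrp1b (109) and Csmd3 (99). Axon guidance genes had 4 hosts of 36 (11.1%), Sema5a, Ephb1, Plxna2 and Epha8, with 1 member each and 0.369 per Mb.

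Receptor and cadherin genes lay nearer to the density over all genes. Glutamate and GABA receptors had 6 hosts of 37 (16.2%) and 0.775 members per Mb, with 3 members in the AMPA receptor gene Gria1 and 2 in the NMDA receptor gene Grin2b, and 1 each in Grik2, Grin2a and Grm4. Cadherins and protocadherins had 5 of 36 (13.9%) and 0.917 per Mb. Cdh13 and Cdh4 held 3 members and 219 Dzip3 reads each, and Cdh23, Cdh15 and Cdh11 1 each.

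Lists of developmental regulators differed among themselves. Of 75 lineage transcription factors 5 held a member (6.67% against 3.32% of all protein-coding genes, at 0.928 per Mb), namely Sox5 with 3 members and 211 Dzip3 reads and Foxp1, Mecom, Tshz2 and Runx1 with 1 each. Among 33 genes of naive and core pluripotency, Nanog alone had one, the member just outside the limit, with 51 Dzip3, 38 Ring1B, 34 ubH2A and 11 input reads and a fold of 3.90. Genes of Wnt, Fgf, Bmp and Nodal signalling had 7 of 58 (12.1%, 1.20 per Mb). Fgfr2, with 3 members, is annotated over 3009 kb, and Wnt9a, Bmp7, Tcf7l1 and Smad3 had 1 each with 69 to 75 Dzip3 reads. No Hox gene of 39 and no gene of 39 for polycomb group proteins and H2A ubiquitin enzymes had a member in its span. Their spans add up to 0.300 and 1.86 Mb, in which little can fall. Within 100 kb of a TSS a member was found for 25.9% of the signalling genes, 22.7% of lineage factors, 21.2% of pluripotency genes, 17.9% of Hox genes and 5.13% of polycomb group genes, against 16.6% of all genes.

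**Figure D5:**
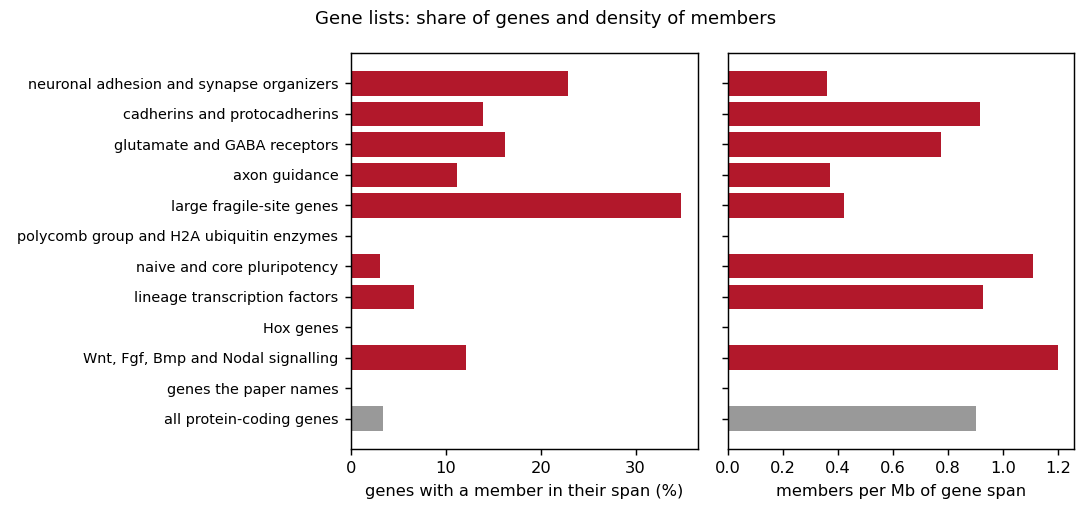
For 11 gene lists and all protein-coding genes (rows), the share of genes with a member in their span (left, in percent) and the members per Mb of gene span (right). Neuronal adhesion genes stand at 22.9% and 0.360 per Mb, whereas all protein-coding genes stand at 3.32% and 0.901 per Mb.

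Of the 10 genes that the paper studied, none held a member in its span, and 3 had one within 100 kb of a TSS. Over all protein-coding genes the shares were 3.32% and 16.6%. The spans of the 10 genes add up to 0.345 Mb, and the rule left out sequence within 4 kb of a TSS. Little can fall in these spans, so nothing is read from the absence. The 3 genes were Neurod1, Shank3 and Bspry, with single members at 31.9, 39.5 and 86.1 kb. The member near Neurod1, a proneural factor gene, held 87 Dzip3, 37 Ring1B, 28 ubH2A and 2 input reads, that near Shank3, a postsynaptic scaffold gene, 70, 21, 6 and 2, and that near Bspry 52, 27, 13 and 0. For the germ cell gene Stra8 and the muscle actin gene Acta1 the nearest member lay just beyond, at 133.0 and 111.3 kb, and for T, Eomes, Neurog1 and Rhox6 at 313.1, 363.3, 622.8 and 962.1 kb. The nearest to Cdh2 was 2809 kb away.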

How the data were processed

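Libraries were sequenced on a MiSeq, to a stated depth of uniquely mapped reads. The depth that the paper states is lower than the 48.3 M to 67 M reads per library given by the RPM values. What makes up the difference was not tested. The authors aligned the libraries to mm9 with the Illumina Analysis Pipeline and called peaks on each library with Partek software. For every peak the deposited tables give the count of reads from all 4 libraries, a height in extended reads and as RPM, a scaled ratio (fold) to input DNA, the percent of its length under peaks of the other libraries, and p-values, which were not used here. In the ubH2A and input lists 2 broken rows were left out, and their peaks on chromosome 10 and on parts of chromosomes 1, 11 and 12 were not analysed here. The members rest on the percent columns of the Dzip3 list, whereas the ubH2A-only and input-only sets lack those parts.

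Library sizes are medians of height over RPM. Distances run from the nearest edge of a peak to GENCODE transcript starts. Peaks named are the 8 with the highest RPM, the first 5 of each class, 3 on either side of 4 kb and the 3 closest groups of 3, and genes named are the 15 hosts with the most members, up to 5 hosts of each list and the 10 genes of the paper. The sequences shown, the longest runs, the most exact arrays and the strongest members without repeated words were picked after their values were seen. A few of these members are not reported here. Of 416 listed symbols 413 were found, older symbols through RefSeq. The members and lists were chosen with earlier results of these data known. The functions for alternating runs, motifs, copies of words, distances and arrays found the answers planted in simulated sequence or positions. Those for GC content, CpG ratio and annotation classes were not checked in this way. Python 3.11.15, numpy 2.4.6, pandas 2.3.3, scipy 1.17.1, statsmodels 0.14.6, numba 0.67.0 and matplotlib 3.10.9 were used.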

Additional observations from a re-analysis of the deposited data

How the results depend on the processing

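No paired analysis was possible because every target has a single library. Of 77 values under alternatives, 56 stayed within their limits (1.5 times for counts, the 95% interval for shares and medians) and 21 moved. The number of members stayed between 1700 and 2153. With the 50% of members highest in RPM, the median RPM was 0.770, the fold 12.9, Dzip3 reads 81, host genes 405, alternating runs 18.3%, arrays 22.6% and windows with over 50% of words repeated 43.8%; the first of these follow from the selection. With at most 10 input reads the fold was 13.8, GC content 53.0% and repeated windows 35.1%. Over 10 kb from a TSS, 4.71% of members were exonic, 59.6% intergenic and 41.4% repeated windows. By the centre of the peak 5.08% were exonic, and with all gene types 52.8% were intergenic. Within 100 kb of a TSS there were 3720 genes and 81 listed genes, against 44 with a member in their span, since the distance takes in more genes. Over the whole peak, arrays were 16.9% and GC content 51.9%. Runs of at least 30 bases, an alternative chosen after seeing the data as the next one was, were in 10.4% of members and arrays with 80% of bases matching in 11.3%. The cause of the other changes was not tested. Among single lists, the shares for pluripotency genes (21.2%), lineage factors (22.7%), Hox genes (17.9%), signalling genes (25.9%) and the genes of the paper (30%) moved within 100 kb of a TSS. Without Gm20388, also chosen after seeing the data, the density over all genes was 0.878 per Mb. With 1 library and heights near the lowest one listed, the depth limits which positions were called at all, and a position below 33 extended reads was not detectable as a peak.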
